A study of Mus musculus with 14 samples.

Results

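The response of stage E2 mouse erythroblasts to a short erythropoietin (EPO) challenge was measured on 6 of the 14 Affymetrix arrays of the series, 3 from EPO-challenged cells and 3 from unchallenged cells. They were chosen by their sample titles, and the other 8 arrays are of stage E1, a less mature cohort with 4 EPO-challenged and 4 unchallenged arrays. All cells came from bone marrow of female wild-type C57Bl/6 mice aged 8 to 12 weeks, grown ex vivo in SP34ex medium, a serum-free culture whose additives include EPO, stem cell factor, dexamethasone and beta-estradiol. Stage E2 cells were taken at day 3.5 by depleting lineage-positive and Kit-positive cells and then selecting CD71-positive cells, and the labels call them proerythroblasts. Stage E1 cells were Kit-positive and CD71-positive and were taken at day 3. Both stages were then held for 5.5 h without hematopoietic cytokines, and either received EPO at 4 U/mL for 90 min or did not. The arrays of a group are biological replicates according to the study, but whether each came from separate mice or from pooled marrow is not given in the sources used here. RNA was taken from bulk cells, so fewer cells of a type and less RNA per cell cannot be told apart.

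The labelled stage was set against marker genes in the unchallenged arrays, where stage E2 was compared with stage E1 by limma on all 14 arrays. This difference between stages was read on the deposited scale only. Of 7 erythroid markers with a probe set of their own, 6 were higher in E2, among them Slc4a1, the band 3 anion exchanger of the red cell membrane, with a log2 difference of 6.61 (SE 0.333), Alas2, the erythroid enzyme that starts haem synthesis, with 4.22 (SE 0.265), and Tfrc, the transferrin receptor CD71 used in the selection, with 2.94 (SE 0.465). The exception was the alpha globin gene Hba-a1, which differed by -0.01 (SE 0.0115, adjusted p = 0.482). Hba-a2, an alpha globin gene outside the marker list, was lower in E2 by a log2 difference of -2.22 (SE 0.333, adjusted p = 0.000525). Of 7 early progenitor markers 5 were lower, and Kit, used for the depletion, was lower by a log2 difference of -2.69 (SE 0.282). Of 10 neutrophil markers 8 were lower, by up to -9.49 for S100a8, while all 5 megakaryocyte markers were higher, by up to 4.33 for Ppbp. Within E2, 0 of the 57 marker genes of erythroid, progenitor, neutrophil, monocyte, B, T, megakaryocyte and mast cells passed limma's adjusted test between EPO-challenged and unchallenged arrays (9 had an unadjusted p under 0.05, of which 3 were higher and 6 lower). The largest differences were -1.18 for Slc4a1 (SE 0.292, adjusted p = 0.123), -0.64 for Kit (SE 0.262, adjusted p = 0.335), -0.57 for Tfrc (SE 0.270, adjusted p = 0.422), -0.50 for the megakaryocyte marker Gp9 (SE 0.147, adjusted p = 0.180) and 0.41 for the basophil marker Mcpt8 (SE 0.150, adjusted p = 0.274). Differences of neutrophil, monocyte, B cell and T cell markers were at most 0.15, 0.11, 0.25 and 0.03 in size.

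EPO is the hormone that keeps red cell precursors alive and growing. It binds a paired receptor that carries the kinase Jak2, which phosphorylates the transcription factor STAT5 and also opens the Ras-ERK and PI3K-Akt routes. STAT5 switches on survival genes and its own inhibitors of the SOCS family, ERK drives a wave of immediate early genes, and Akt keeps the FOXO factors, which favour growth arrest and death, out of the nucleus. In erythroid cells the dependence on EPO is sharpest around the late progenitor and proerythroblast stages and fades as haemoglobin accumulates.

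EPO changed the E2 transcriptome within 90 min, mostly upward among the larger changes. Over 18193 genes, each represented by 1 probe set, 527 were higher (2.90% of the genes tested) and 423 were lower (2.33%) at an adjusted p under 0.05 by limma. With a fold of at least 2 as well, 182 genes were higher (1.0%) and 67 lower (0.368%), and at a fold of at least 4 there were 43 higher genes and 1 lower. Over all 45037 probe sets, 1146 were higher (2.54%) and 935 lower (2.08%). Log2 differences ran from -2.69 for Klhl24 to 5.61 for Socs3, while the median over all genes was -0.005.

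The 6 arrays fell apart by treatment. Over all probe sets, Pearson's r was 0.719 to 0.797 among the unchallenged arrays, 0.753 to 0.823 among the EPO-challenged arrays and 0.185 to 0.404 across the groups, values that are on a scale centred for each probe set and so are lower than those of raw intensities. The leading principal component took 65.3% of the variance and set the unchallenged arrays, at -34.37 to -26.26, apart from the EPO-challenged arrays, at 26.67 to 34.63. With 3 arrays a group and a prior of 0.79 degrees of freedom, limma borrowed little between genes, so the counts move with the number of arrays. Leaving out unchallenged replicates 1, 2 or 3 left 300, 247 or 311 genes higher and 249, 151 or 211 lower, and leaving out EPO-challenged replicates 1, 2 or 3 left 282, 371 or 351 higher and 206, 222 or 238 lower. Of the 106 genes named here that passed the test, 38 did not pass with some array left out, yet in those cases their differences were 87.1% to 112% of the difference over all arrays. Of the 70 with several probe sets, 25 passed on all and 31 on 1, and 0 had a probe set that passed in the other direction by limma.

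**Figure D1:**
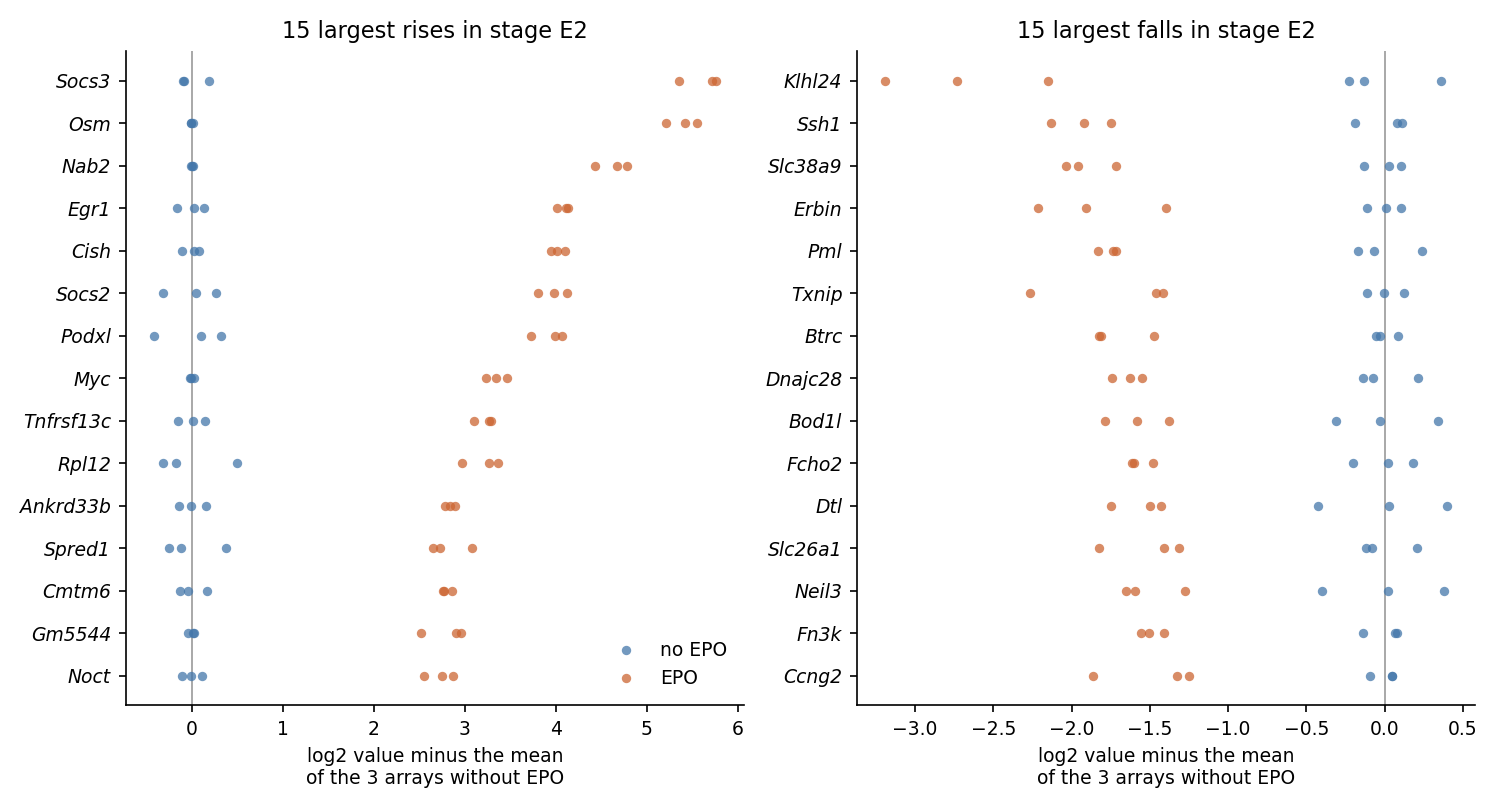
Values of the 15 largest rises (left) and the 15 largest falls (right) in stage E2, chosen among genes past adjusted p 0.05 whose groups do not overlap. Each point is 1 array (3 unchallenged, 3 EPO-challenged), drawn as its log2 value minus the mean of the unchallenged arrays of that gene; the rises run from 2.72 (Noct) to 5.61 (Socs3) and the falls from -1.48 (Ccng2) to -2.69 (Klhl24).

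Promoter windows are shown here for 6 genes that hold a motif, taken from the groups described next, where most members do not. They are feedback genes of the STAT5 route (Cish, Socs3), a gene that rose in E2 and not in E1 (Trim15), the early gene Srf, the mitochondrial import gene Timm9 and the FOXO target Txnip. The windows are RefSeq windows of the GRCm38.p6 build, each read 5′ to 3′ on the gene's own strand from 250 bases before to 50 bases after the annotated start. Capitals mark the STAT recognition motif TTCNNNGAA in Cish (chr9:107296409-107296708, plus strand), Socs3 (chr11:117969317-117969616, minus strand) and Trim15 (chr17:36867138-36867437, minus strand), the CArG box that binds serum response factor in Srf (chr17:46556113-46556412, minus strand), the E-box CACGTG that binds Myc and related factors in Timm9 (chr12:71136626-71136925, minus strand), and the forkhead motif GTAAACA in Txnip (chr3:96557707-96558006, plus strand).
Cish: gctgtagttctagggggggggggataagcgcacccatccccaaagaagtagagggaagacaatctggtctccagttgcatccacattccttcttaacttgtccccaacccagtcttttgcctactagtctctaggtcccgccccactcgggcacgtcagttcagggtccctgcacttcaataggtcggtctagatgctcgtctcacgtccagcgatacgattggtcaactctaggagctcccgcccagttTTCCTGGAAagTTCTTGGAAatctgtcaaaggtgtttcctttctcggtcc
Socs3: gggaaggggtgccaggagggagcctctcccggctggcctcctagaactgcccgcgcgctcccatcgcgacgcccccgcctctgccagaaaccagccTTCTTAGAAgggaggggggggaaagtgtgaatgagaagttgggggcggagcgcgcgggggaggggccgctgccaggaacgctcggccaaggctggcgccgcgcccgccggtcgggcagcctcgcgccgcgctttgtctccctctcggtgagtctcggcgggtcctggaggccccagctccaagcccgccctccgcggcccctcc
Trim15: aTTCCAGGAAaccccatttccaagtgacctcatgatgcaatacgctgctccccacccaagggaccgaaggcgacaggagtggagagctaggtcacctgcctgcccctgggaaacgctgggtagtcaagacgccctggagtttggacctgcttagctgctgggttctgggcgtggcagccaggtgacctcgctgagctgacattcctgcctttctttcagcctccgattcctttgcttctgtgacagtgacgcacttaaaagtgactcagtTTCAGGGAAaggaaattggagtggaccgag
Srf: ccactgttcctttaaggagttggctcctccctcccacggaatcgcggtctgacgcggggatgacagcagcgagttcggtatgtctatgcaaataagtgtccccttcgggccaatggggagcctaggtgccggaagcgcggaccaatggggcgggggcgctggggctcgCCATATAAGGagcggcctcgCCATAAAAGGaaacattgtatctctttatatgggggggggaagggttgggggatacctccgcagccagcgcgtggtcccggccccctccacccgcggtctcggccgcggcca
Timm9: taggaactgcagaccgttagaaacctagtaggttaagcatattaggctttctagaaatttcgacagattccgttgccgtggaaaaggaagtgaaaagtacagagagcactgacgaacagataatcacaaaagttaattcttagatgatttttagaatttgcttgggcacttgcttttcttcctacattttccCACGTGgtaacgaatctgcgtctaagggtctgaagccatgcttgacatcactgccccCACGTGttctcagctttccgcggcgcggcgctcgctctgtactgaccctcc
Txnip: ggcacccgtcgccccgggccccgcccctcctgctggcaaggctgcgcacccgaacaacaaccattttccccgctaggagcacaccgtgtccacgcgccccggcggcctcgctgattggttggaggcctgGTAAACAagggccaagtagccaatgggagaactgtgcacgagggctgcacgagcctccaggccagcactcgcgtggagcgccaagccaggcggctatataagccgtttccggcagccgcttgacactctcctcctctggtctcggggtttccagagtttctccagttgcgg

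These motifs were searched on both strands, and the matches marked do not overlap each other. Windows on chr18 were left out of the search and of every share given here. Trim15 has 2 windows, which were ordered by number of matches, and the first is shown. In the windows shown, Cish held 2 STAT motifs that begin at bases 1 and 12 of the annotated transcript, Socs3 held 1 that begins 154 bases before the start, and Timm9 held E-boxes that begin 58 bases and 1 base before it. Over the 14452 measured genes with a window, 8.57% held a STAT motif, 10.2% an E-box, 3.40% the forkhead motif (GTAAACA or TGTTTAC) and 1.58% a CArG box. Among the 144 genes with a window that rose at least 2-fold, 14.6% held a STAT motif, 13.9% an E-box, 2.08% the forkhead motif and 3.47% a CArG box. Among the 55 that fell at least 2-fold the shares were 9.09%, 18.2%, 12.7% and 0%. Over all 32851 windows searched the shares were 8.30%, 7.15%, 3.65% and 1.63%. In the lists the genes shown belong to, 4 of 17 STAT5 targets with a window held a STAT motif. A CArG box was held by 3 of 23 immediate early genes, an E-box by 5 of 28 mitochondrial import genes and the forkhead motif by 7 of 36 FOXO targets. A match is a run of letters and not a bound site, and these shares are descriptions without a test.

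The list of STAT5 targets held the largest rise of the response. Of the 25 listed, 11 rose (10 or 11 when 1 array was left out) and 2 fell (0 without unchallenged replicate 3 or EPO-challenged replicate 1), with a median log2 difference of 0.80 against -0.005 over all genes, beside the 2.90% of all genes that rose. The leading members were feedback inhibitors of the SOCS family, which bind activated cytokine receptors or Jak2 and damp their signal. Cish, a classical STAT5 target, lay at -1.11, -1.24 and -1.05 in the unchallenged arrays and at 2.97, 2.81 and 2.88 in the EPO-challenged arrays. Its groups lay far apart, with a log2 difference of 4.02 (SE 0.0661, adjusted p = 0.000281 by limma), a 16.2-fold rise. Socs3, which blocks Jak2 through the receptor, lay at -2.17, -2.44 and -2.45 without EPO and at 3.40, 3.36 and 3.00 with it. At 48.8-fold (log2 difference 5.61, SE 0.145, adjusted p = 0.000878) it was the largest rise of all genes. Socs2, better known for limiting growth hormone signals, rose 15.7-fold (log2 difference 3.97, SE 0.176, adjusted p = 0.00244), on 3 of its 6 probe sets. The other 5 SOCS genes did not pass the test.

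Osm, which encodes oncostatin M, a cytokine of the interleukin-6 family, stood next to Socs3. Its values were -2.48, -2.49 and -2.46 in unchallenged cells and 3.07, 2.73 and 2.95 after EPO, a 42-fold rise (log2 difference 5.39, SE 0.0919, adjusted p = 0.000281). Podxl, which encodes podocalyxin, a sialomucin of the cell surface, rose 15.3-fold (log2 difference 3.93, SE 0.221, adjusted p = 0.00347). Myc, the growth transcription factor, lay at -0.86, -0.83 and -0.87 without EPO and at 2.61, 2.49 and 2.38 with it. This was a 10.2-fold rise (log2 difference 3.35, SE 0.0619, adjusted p = 0.000368). The anti-apoptotic Mcl1 rose 2.03-fold on all 6 of its probe sets (log2 difference 1.02, SE 0.0885, adjusted p = 0.0100, and 0.0597 in the fit on all 14 arrays), and Ccnd2, the cyclin D2 that drives entry into the cell cycle, rose 3.95-fold on 6 of its 7 probe sets (log2 difference 1.98, SE 0.0628, adjusted p = 0.00124). Bcl6, a transcriptional repressor that STAT5 is known to lower, fell (log2 difference -0.85, SE 0.0780, adjusted p = 0.0116), a call that ended without unchallenged replicate 3 or EPO-challenged replicate 1 (adjusted p 0.050 and 0.0504).

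Of 28 genes of the receptor and its nearest partners, 2 passed the test, both upward (7.1%, against 2.90% of all genes). The median log2 difference of the 28 was -0.09. Epor, the EPO receptor itself, differed by -0.10 (SE 0.104, adjusted p = 0.740). Pik3cb, a catalytic subunit of PI3 kinase, rose 3.17-fold (log2 difference 1.67, SE 0.200, adjusted p = 0.0217), and Irs2, an adaptor that carries receptor signals to PI3 kinase, rose 1.77-fold (log2 difference 0.82, SE 0.0977, adjusted p = 0.0211). Both calls rested on the number of arrays: Pik3cb did not pass when any array but unchallenged replicate 2 was left out (adjusted p 0.0519 to 0.0788), nor did Irs2 without unchallenged replicate 2 or any EPO-challenged array (0.0686 to 0.0808). The survival kinase Pim3 rose 2.05-fold (log2 difference 1.03, SE 0.127, adjusted p = 0.0229), but not with any single array left out (adjusted p 0.0515 to 0.0800). Of the 2 probe sets of Pim1, a related kinase, the one chosen to represent it differed by 0.86 (adjusted p = 0.0682) and the other by 0.95 (adjusted p = 0.00485).

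In the Bcl2 family, 1 of 19 measured members rose and 1 fell (5.3% each, against 2.90% and 2.33% of all genes). These were Mcl1, which rose, and the death agonist Bid, which fell (log2 difference -0.94, SE 0.113, adjusted p = 0.0219). Bid did not pass without unchallenged replicate 3 or any EPO-challenged array (adjusted p 0.0686 to 0.0761). Bcl2l1, the gene of Bcl-xL, differed by -0.32 (SE 0.273, adjusted p = 0.697), and its 4 probe sets, at -0.32 to 0.47, all missed the threshold of limma. Bcl2l11, the gene of the death inducer Bim, was represented by a probe set at -1.51 (SE 0.282, adjusted p = 0.0622), but 3 of its 5 probe sets passed as lower, by log2 differences of -1.27, -1.48 and -2.36.

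Several secreted factors and receptors rose beside Osm. All 5 cytokine or receptor genes that the study singled out in stage E1 rose in E2, a list that the study drew from the E1 arrays and that is not independent evidence of the direction in E1. By RT-PCR the study also reported that EPO induced Tnfrsf13c in cells of stages E1, E2 and E3. Tnfrsf13c, the receptor for the B cell factor BAFF, lay at -2.17, -2.04 and -2.33 without EPO and at 1.09, 1.11 and 0.92 with it, a 9.31-fold rise (log2 difference 3.22, SE 0.0964, adjusted p = 0.00119). Cmtm6, a membrane protein that stabilises surface ligands, rose 6.94-fold (log2 difference 2.80, SE 0.0859, adjusted p = 0.00124), and Lrp8, a lipoprotein receptor family member, rose 2.94-fold on all 3 of its probe sets. Gdf3, a TGF-beta family ligand, was nearly flat without EPO, at -0.03 to -0.04, and reached 0.86, 1.14 and 0.60 with it (log2 difference 0.90, SE 0.142, adjusted p = 0.0414). Its call ended without any unchallenged array or without EPO-challenged replicate 1 (adjusted p 0.122 to 0.142). Of 26 TNF receptor and ligand genes measured, 3 rose (11.5%, against 2.90% of all genes). They were Tnfrsf13c, the death domain receptor Tnfrsf21 (6.37-fold) and Tnfrsf12a, the receptor for TWEAK (3.24-fold). Tnfrsf21 passed with all arrays (adjusted p = 0.0217) and did not without any array but unchallenged replicate 1 (0.0567 to 0.0812).

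All immediate early genes that passed the test rose. Of 29 measured, 14 rose (48.3%, against 2.90% of all genes) and 15 did not pass, with a median log2 difference of 0.45, and 11 to 12 rises passed whichever array was left out. Egr1, a zinc finger factor induced by ERK, lay at 0.06, -0.06 and -0.24 without EPO and at 4.03, 3.93 and 4.06 with it, a 17.0-fold rise (log2 difference 4.08, SE 0.0863, adjusted p = 0.000562). Nab2, the corepressor that binds EGR factors and limits them, rose more, 24.8-fold (log2 difference 4.63, SE 0.0955, adjusted p = 0.000560), from -1.48, -1.50 and -1.49 to 3.30, 2.94 and 3.19. Ier2 rose 5.63-fold and Fos, the AP-1 subunit, 5.18-fold. Srf encodes serum response factor, which binds the CArG boxes shown in its own promoter. It had an adjusted p of 0.000138, with values of -0.30, -0.34 and -0.31 without EPO and 1.66, 1.69 and 1.65 with it (log2 difference 1.98, SE 0.0189), a 3.96-fold rise. Further rises came from the stress factor Atf3 (4.47-fold), the TGF-beta inducible Klf10 (4.37-fold), the mRNA decay factor Zfp36 (3.51-fold) and the small Maf protein Maff (2.62-fold). Maff alone of these lost its call, when any array but EPO-challenged replicate 2 was left out (adjusted p 0.0689 to 0.0925).

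On the list of inhibitors that act back on the ERK route, 4 of 17 rose (23.5%, against 2.90% of all genes). Spred1, which keeps Raf from being activated, rose 7.05-fold (log2 difference 2.82, SE 0.212, adjusted p = 0.00707) on 6 of its 8 probe sets, and Spry1, of the related Sprouty family, rose 5.31-fold (log2 difference 2.41, SE 0.0910, adjusted p = 0.00177). Dusp16, a phosphatase of stress-activated MAP kinases, lay at -0.07, 0.07 and -0.08 without EPO and at 1.66, 1.54 and 1.58 with it, a 3.08-fold rise (log2 difference 1.62, SE 0.0555, adjusted p = 0.00133) on 1 of its 2 probe sets. The rise of Spry2 passed the test at a log2 difference of only 0.11, and not without any array but unchallenged replicate 3 (adjusted p 0.0548 to 0.0821).

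**Figure D2:**
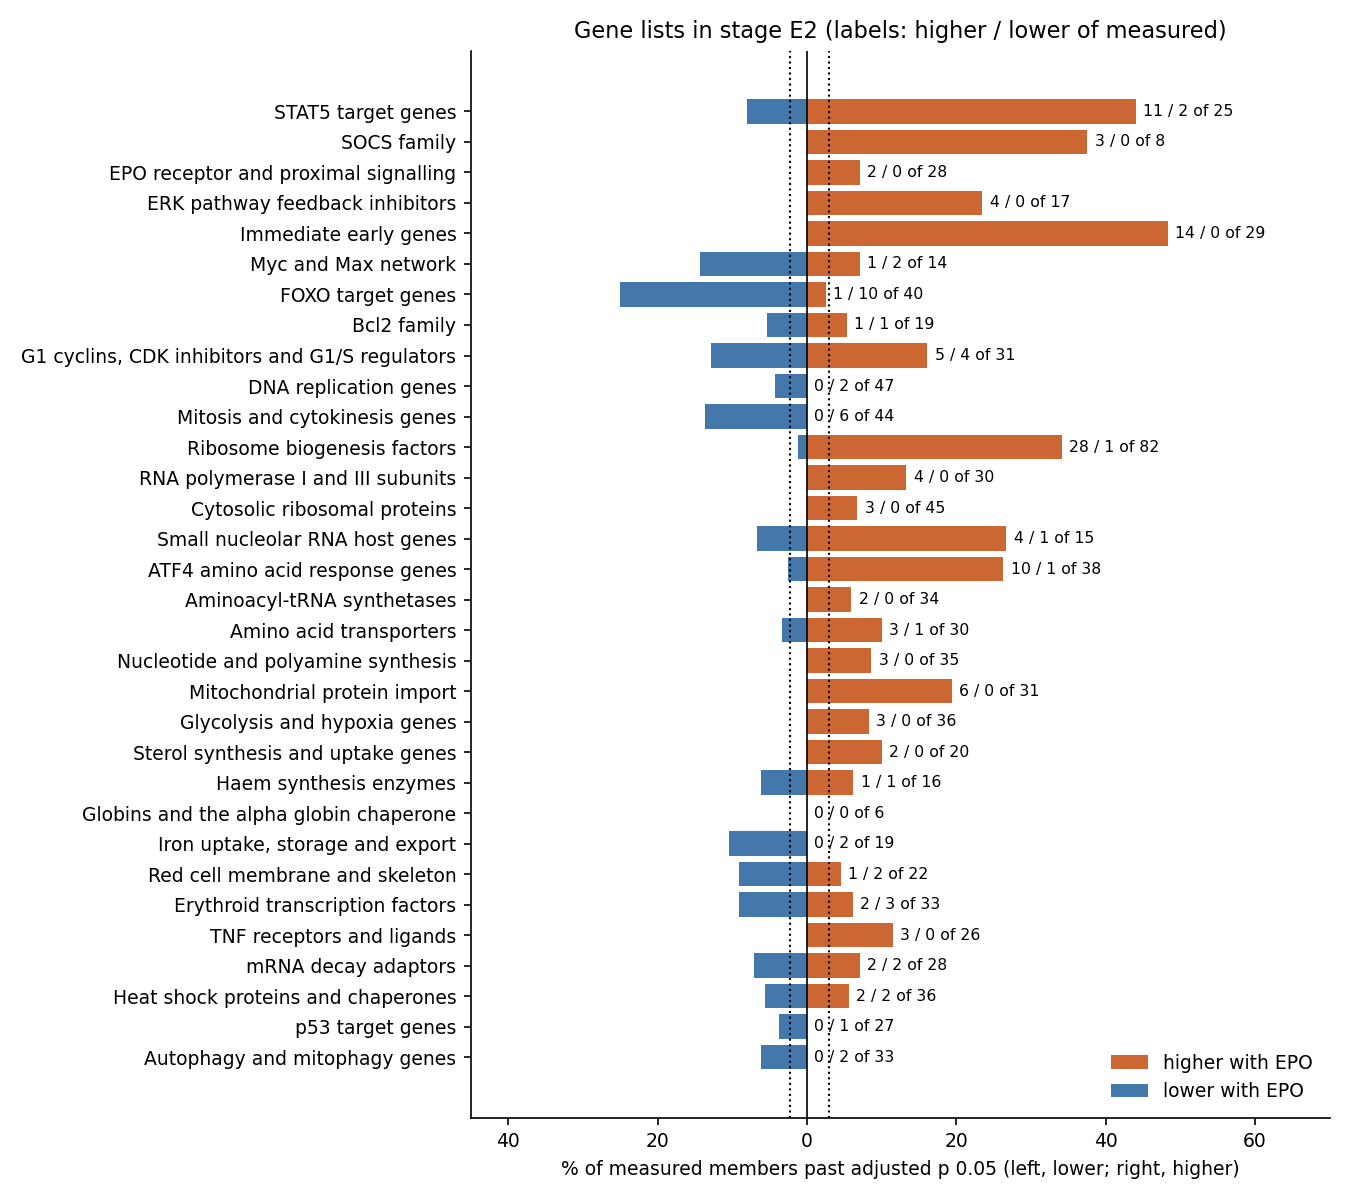
Share of the measured members of each gene list that were higher (right) or lower (left) with EPO in stage E2 at adjusted p under 0.05, in percent, with the counts printed as higher / lower of measured. Dotted lines mark the shares over all 18193 genes, 2.90% higher and 2.33% lower; immediate early genes reach furthest to the right, followed by STAT5 target, SOCS and ribosome biogenesis genes, and FOXO target genes furthest to the left.

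Many transcripts of ribosome biogenesis factors rose. Of 82 factors that process ribosomal RNA or assemble ribosomal subunits, 28 rose (34.1%, against 2.90% of all genes), 53 did not pass and 1, Rpf1, fell (log2 difference -0.57, adjusted p 0.0546 without unchallenged replicate 2), with a median log2 difference of 0.50. The count of rises was between 13, without unchallenged replicate 2, and 19, without EPO-challenged replicate 3, when 1 array was left out. Rrs1, needed for the large subunit, lay at -1.56, -1.63 and -1.39 without EPO and at 0.72, 0.48 and 0.78 with it, a 4.56-fold rise (log2 difference 2.19, SE 0.108, adjusted p = 0.00279). Tsr1, needed for the small subunit, rose 5.23-fold (log2 difference 2.39, SE 0.221, adjusted p = 0.0116), from -2.21, -1.69 and -1.49 to 0.58, 0.41 and 0.80. Its call ended narrowly without unchallenged replicate 2 or EPO-challenged replicate 1 (adjusted p 0.0542 and 0.0513). Gnl3, the nucleolar GTPase nucleostemin, rose 2.61-fold, Nip7 2.16-fold and Gtpbp4 2.06-fold. Among RNA polymerase I and III genes 4 of 30 rose (13.3%, against 2.90% of all genes). The count was 2 without any 1 of the unchallenged arrays and 3 without any 1 of the others. These rises were led by Polr1b, a core subunit of polymerase I (2.13-fold, adjusted p = 0.00550), and Gtf3c4, a subunit of the polymerase III factor TFIIIC (2.0-fold, adjusted p = 0.00805).

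Of 78 genes of the ribosomal proteins themselves written in the list, 45 had a probe set that names no other gene. Of these 3 rose (6.7%, against 2.90% of all genes), and the median log2 difference of the 45 was -0.02. Rpl12 rose 9.18-fold (log2 difference 3.20, SE 0.253, adjusted p = 0.00790), from -0.27, -0.94 and -1.08 to 2.50, 2.21 and 2.60. Rps24 rose 4.41-fold (log2 difference 2.14, SE 0.0916, adjusted p = 0.00228), but on 1 of its 6 probe sets, and Rps25 rose 1.77-fold, which did not pass without any array but EPO-challenged replicate 2 (adjusted p 0.0648 to 0.0884). Ribosomal protein genes have many near-identical pseudogenes, and what a single deviating probe set measures cannot be read from these values. Hosts of small nucleolar RNAs rose in 4 of 15 cases (26.7%, against 2.90% of all genes), led by Snhg16 (1.92-fold, adjusted p = 0.00133, and 0.271 in the fit on all 14 arrays). The count was 2 without unchallenged replicates 1 or 2 or EPO-challenged replicates 1 or 3.

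In mitochondrial protein import 6 of 31 measured genes were higher (19.4%, against 2.90% of all genes) and 25 did not pass, with a median log2 difference of 0.04. Timm9, a small chaperone of the intermembrane space, rose 6.54-fold on both of its probe sets (log2 difference 2.71, SE 0.171, adjusted p = 0.00444), from -0.23, -0.13 and -0.22 to 2.16, 2.63 and 2.76. Chchd4, the receptor that folds such proteins, rose 3.22-fold (log2 difference 1.69, SE 0.0888, adjusted p = 0.00300), and Timm8a1, a partner of the small chaperones, rose 2.29-fold. In nucleotide and polyamine synthesis 3 of 35 genes rose (8.6%, against 2.90% of all genes), and 1 did without any array but unchallenged replicate 1. Among the 3 was Srm, spermidine synthase, which rose 3.14-fold (log2 difference 1.65, SE 0.0519, adjusted p = 0.00124). Genes of glycolysis and the hypoxia response rose in 3 of 36 cases (8.3%, against 2.90% of all genes). These were the hydroxylase Egln3 at 4.32-fold (adjusted p 0.263 in the fit on all 14 arrays), the growth factor Vegfa at 3.25-fold on 1 of 2 probe sets and the repressor Bhlhe40 at 2.87-fold. The deadenylase-related Noct, a nocturnin gene, rose 6.59-fold (log2 difference 2.72, SE 0.104, adjusted p = 0.00180), and the chaperone Hspa8 rose 3.67-fold on 2 of its 4 probe sets. Among the 15 largest rises were also Ankrd33b, an ankyrin repeat gene (7.14-fold, adjusted p = 0.00119), and the predicted gene Gm5544 (6.93-fold, adjusted p = 0.00258). The tetraspanin Tspan14 rose 5.20-fold.

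Of 38 measured genes of the ATF4 amino acid response, 10 rose (26.3%, against 2.90% of all genes) and 1 fell, with a median log2 difference of 0.11 and no log2 difference above 0.94. Between 4 (without EPO-challenged replicate 1) and 8 (without EPO-challenged replicate 3) rises passed when 1 array was left out. Trib3, a pseudokinase induced by ATF4, lay at -0.28, -0.001 and 0.001 without EPO and at 0.83, 0.88 and 0.82 with it (log2 difference 0.94, SE 0.0862, adjusted p = 0.0116). Chac1, which degrades glutathione, went from -0.004, 0.004 and -0.12 to 0.86, 0.68 and 0.83 (log2 difference 0.83, SE 0.0626, adjusted p = 0.00709). Nupr1, a small stress-induced nuclear protein, went from -0.04, -0.20 and 0.04 to 0.76, 0.76 and 0.82 (log2 difference 0.85, SE 0.0674, adjusted p = 0.00803). The groups did not overlap for any of these genes, but the steps were under 2-fold. Atf4 itself rose 1.32-fold (adjusted p = 0.0375), the serine synthesis enzyme Psat1 1.58-fold and the tRNA exporter Xpot 1.53-fold. Calls of Atf4 ended without any array but EPO-challenged replicate 3 (adjusted p 0.0692 to 0.132), and that of Trib3 without EPO-challenged replicate 1 (0.0504). In the fit on all 14 arrays Trib3, Nupr1, Chac1, Psat1 and Atf4 did not pass (adjusted p 0.0837, 0.159, 0.215, 0.334 and 0.105).

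FOXO targets held more falls than rises. Of 40 measured, 10 fell (against the 2.33% of all genes that fell), 1 rose, which was Irs2, and 29 did not pass, with a median log2 difference of -0.11. Klhl24, a Kelch-like adaptor of ubiquitin ligases, was the largest fall of all genes, from 0.56, 0.08 and -0.02 to -2.98, -2.52 and -1.94 (log2 difference -2.69, SE 0.321, adjusted p = 0.0215), and 4 of its 5 probe sets passed. Txnip, which inhibits thioredoxin and glucose uptake, lay at 0.87, 1.11 and 0.98 without EPO and at -0.48, -0.43 and -1.28 with it (log2 difference -1.72, SE 0.260, adjusted p = 0.0378), on both of its probe sets. Ccng2, the cyclin G2 of resting cells, fell by 1.48 on the log2 scale (SE 0.181, adjusted p = 0.0227) and Cdkn1b, the CDK inhibitor p27, by 1.37 (SE 0.217, adjusted p = 0.0427), the latter on 1 of its 2 probe sets. Sesn1, a sestrin that restrains mTORC1, fell by 1.08, Pnrc1, a nuclear receptor coregulator, by 1.06, Hbp1, a repressor of cell cycle genes, by 0.92 and Trib2, a relative of Trib3, by 0.65.

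Many of these calls ended with fewer arrays, while the differences stayed about as large. The FOXO list held between 2 falls past the test (without unchallenged replicate 3 or EPO-challenged replicate 1) and 8 (without EPO-challenged replicate 3). Leaving out any array but EPO-challenged replicate 3 ended the calls of Klhl24 (log2 difference -2.80 to -2.44, adjusted p 0.0512 to 0.0850), Txnip (-1.86 to -1.66, 0.0719 to 0.136) and Ccng2 (-1.59 to -1.46, 0.0511 to 0.0952), and any array but unchallenged replicate 1 that of Cdkn1b (0.0598 to 0.136). Sesn1 and Pnrc1 did not pass without any unchallenged array or EPO-challenged replicate 1 (0.0531 to 0.0660 and 0.0599 to 0.0725), while Hbp1 and Trib2 passed in every case. In the fit on all 14 arrays Txnip and Trib2 did not pass (adjusted p 0.171 and 0.246), and Trib2 passed in E2 on 1 of its 3 probe sets.

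Among the other large falls were regulators of the cytoskeleton, nutrient sensing and protein turnover. Ssh1, a phosphatase that activates the actin-severing protein cofilin, fell from 1.03, 0.73 and 1.0 to -0.83, -1.0 and -1.21 (log2 difference -1.93, SE 0.134, adjusted p = 0.00552), on 1 of its 4 probe sets. Slc38a9, a lysosomal arginine sensor of mTORC1, fell from 0.12, 0.19 and -0.05 to -1.63, -1.95 and -1.87 (log2 difference -1.91, SE 0.109, adjusted p = 0.00361), on 2 of 7 probe sets. Pml, which builds nuclear bodies, fell from 2.24, 1.93 and 1.83 to 0.26, 0.16 and 0.28 (log2 difference -1.76, SE 0.118, adjusted p = 0.00516), on 1 of 3. Btrc, the substrate receptor of an SCF ubiquitin ligase, fell 3.26-fold on 1 of 5 probe sets, and Fcho2, an initiator of clathrin-coated pits, fell 2.96-fold on both of its own. The J-domain gene Dnajc28 fell 3.11-fold, and Fn3k, which repairs glycated proteins, fell 2.81-fold, each on 1 of its 2 probe sets. Erbin, a scaffold of receptor kinases, Bod1l, which protects replication forks, Dtl, a ubiquitin ligase adaptor of S phase, Slc26a1, a sulfate transporter, and Neil3, a DNA glycosylase, fell by log2 differences of -1.84 to -1.51. Each of these last 5 calls ended when single arrays were left out: Erbin without any unchallenged array or EPO-challenged replicate 1 (adjusted p 0.0744 to 0.0947), Slc26a1 without any unchallenged array or EPO-challenged replicate 3 (0.0612 to 0.0696), Dtl and Neil3 without any array but unchallenged replicate 3 (0.0642 to 0.134 and 0.0726 to 0.138), and Bod1l without unchallenged replicate 2 or any EPO-challenged array (0.0635 to 0.0988). Dtl passed on 1 of its 6 probe sets, Erbin on 1 of 4, Bod1l on 1 of 3 and Neil3 on 1 of 2. In the fit on all 14 arrays Dtl, Bod1l, Btrc, Dnajc28 and Slc26a1 did not pass (adjusted p 0.735, 0.140, 0.129, 0.0860 and 0.0771).

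Cell cycle genes that passed the test lay in both directions. Among 31 regulators of G1 and of entry into S phase, 5 rose (16.1%) and 4 fell (12.9%), against 2.90% and 2.33% of all genes. When 1 array was left out, 2 to 3 rises and 0 to 2 falls passed. Besides Ccnd2, the phosphatase Cdc25a rose 1.42-fold (log2 difference 0.51, SE 0.0296, adjusted p = 0.00374). In the machinery for DNA replication 2 of 47 genes fell (4.3%, near the 2.33% of all genes), Orc5 of the origin recognition complex (log2 difference -0.85, adjusted p = 0.00275) and the histone mRNA binder Slbp (-0.59, adjusted p = 0.00665). Slbp passed on 1 of its 3 probe sets, the one with the largest SD over all 14 arrays differed by -0.04 (adjusted p = 0.747), and the fit on all 14 arrays gave an adjusted p of 0.236. Of 44 mitosis genes, with a median log2 difference of -0.19, 6 fell (13.6%, against 2.33% of all genes). Among the 6 were Cenpa, the centromeric histone (-1.05, adjusted p = 0.0218), Hmmr, a spindle protein (-0.93, adjusted p = 0.0116), and Kif20a, a kinesin of cytokinesis (-0.54, adjusted p = 0.0163). Cenpa passed on 1 of its 3 probe sets and Hmmr on 1 of its 5. In the fit on all 14 arrays Cenpa and Hmmr did not pass (adjusted p 0.445 and 0.054). At most 3 of the 6 passed when 1 array was left out, and 0 passed by limma without unchallenged replicate 2 or EPO-challenged replicate 1. Cenpa did not pass without unchallenged replicate 2 or any EPO-challenged array (adjusted p 0.0720 to 0.0923), Hmmr without unchallenged replicate 2 or EPO-challenged replicate 1 (0.0517 and 0.0513), and Kif20a without unchallenged replicates 2 or 3 or EPO-challenged replicate 1 (0.0503 to 0.0755).

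Lists of the red cell's own products held small counts past the test after these 90 min. Shares were 6.2% higher and 6.2% lower for haem synthesis and 10.5% lower for iron handling. They were 4.5% higher and 9.1% lower for membrane and skeleton genes, and 6.1% and 9.1% for erythroid transcription factors. Over all genes they were 2.90% and 2.33%. The share of each list rests on 1 to 3 genes and is not read as a result about the list. Of 12 genes written in the globin list, 6 had a probe set of their own. These differed by at most 0.22 on the log2 scale, and 0 passed by limma or had an unadjusted p under 0.05. Among them were the embryonic Hba-x, Hbb-bh1 and Hbb-y, and Hba-a1 spanned only 0.012 over the 6 E2 arrays. The difference of 0.22 was that of the alpha globin gene Hba-a2 (SE 0.279, adjusted p = 0.784), which spanned 0.93 over these arrays. The adult Hbb-b1 had no probe set of its own, so these values say little about adult globin. Haem synthesis had 1 rise and 1 fall among 16 genes, Alad, the second enzyme of the pathway (log2 difference 0.44, adjusted p = 0.0165, and -0.07, adjusted p = 0.417, on its other probe set), and Slc25a38, the mitochondrial glycine carrier (-0.53, adjusted p = 0.00330). In iron handling 2 of 19 genes fell, the iron exporter Slc40a1, ferroportin (-0.72, adjusted p = 0.00487), and the importer Slc11a2 (-0.38, adjusted p = 0.0102), and the lowest difference, -0.98 for the ferrireductase Steap3, missed the threshold (SE 0.282, adjusted p = 0.172). Of 22 membrane and skeleton genes, the glycophorin Gypc rose (0.36, adjusted p = 0.00709), and the water channel Aqp1 (-0.36, adjusted p = 0.0160) and the adducin Add3 (-0.91, adjusted p = 0.0278) fell, while Slc4a1 had the lowest difference, -1.18, and did not pass (adjusted p = 0.123). Of 33 erythroid transcription factors, Tal1 (0.91, adjusted p = 0.0166) and Lyl1 (0.49, adjusted p = 0.0290), related basic helix-loop-helix factors, rose, while their cofactor Ldb1 (-0.83, adjusted p = 0.0111), the repressor Zbtb7a (-0.61, adjusted p = 0.0122) and the elongation cofactor Mllt3 (-0.78, adjusted p = 0.0137) fell.

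Several of these calls also ended with fewer arrays at nearly the same difference. When 1 array was left out, haem synthesis held 0 to 1 rises and 1 to 2 falls, and iron handling 1 to 2 falls. Membrane and skeleton genes held 1 rise and 0 to 2 falls, and erythroid transcription factors 0 to 3 rises and 1 to 3 falls. Alad did not pass without any EPO-challenged array (log2 difference 0.43 to 0.46, adjusted p 0.0563 to 0.0640), Slc11a2 without unchallenged replicate 2 (0.0525), Aqp1 without any unchallenged array or EPO-challenged replicate 1 (-0.38 to -0.34, adjusted p 0.0529 to 0.0587), and Add3 without any array but EPO-challenged replicate 2 (0.0828 to 0.0986). Tal1 did not pass without unchallenged replicate 3 or any EPO-challenged array (0.86 to 0.94, adjusted p 0.0536 to 0.0654), Lyl1 without any array but unchallenged replicate 2 (0.44 to 0.52, adjusted p 0.0674 to 0.10), Mllt3 without any unchallenged array or EPO-challenged replicate 3 (0.050 to 0.0659), and Zbtb7a without unchallenged replicates 2 or 3 (0.0576 and 0.0518). In the fit on all 14 arrays Alad, Aqp1, Add3, Gypc, Slc11a2, Ldb1 and Zbtb7a did not pass (adjusted p 0.0763 to 1). Add3 passed in E2 on 1 of its 4 probe sets, and the one with the largest SD over all 14 arrays differed by -0.21 (adjusted p = 0.401).

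Stage E1 values stand beside these from separate arrays, so the stages share no controls. In E1, 202 genes were higher (1.11%) and 87 lower (0.478%) by limma, with a median SE of 0.113 against 0.0473 in E2, so a count of calls does not compare the size of the responses. Of the 527 genes that rose in E2, 468 (88.8%) had a difference above 0 in E1, where 40.9% of all genes did, and 121 rose past the test there, which is 23.0% of the E2 rises and 59.9% of the E1 rises. Of the 423 genes that fell, 337 (79.7%) were below 0 in E1, where 59.1% of all genes were, and 42 fell past the test, 9.90% of the E2 falls and 48.3% of the E1 falls. No gene passed in opposite directions in the separate tests of the stages. The median log2 difference of the E2 rises was 0.78 in E2 and 0.63 in E1, and that of the E2 falls was -0.58 and -0.34. The genes were picked for passing in E2, which favours larger values there. Their probe sets were picked for spread over the E1 arrays, which favours larger values in E1.

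Genes that the study named for stage E1 were followed into E2. These lists were drawn by the study from the E1 arrays and are not independent evidence of direction in E1. Of 17 measured genes with marked rises, 15 rose in E2, with a median log2 difference of 3.20 (3.49 in E1). For ribosome synthesis 8 of 11 rose (median 1.38 against 1.54) and for RNA processing 6 of 7 rose and 1 fell (1.16 against 1.95). For transcription factors 2 of 9 rose and 6 fell (-0.78 against -1.39), and for signal transduction 6 of 11 rose and 2 fell (0.56 against 1.56). When 1 array was left out, the ribosome list held 5 (without unchallenged replicate 2 or EPO-challenged replicate 1) to 7 rises, the transcription factors 0 (without unchallenged replicates 2 or 3 or EPO-challenged replicates 1 or 2) to 1 rises and 3 (without unchallenged replicates 1 or 2 or EPO-challenged replicate 3) to 5 falls, and signal transduction 3 (without any 1 of the EPO-challenged arrays) to 5 rises and 0 (without any unchallenged array or EPO-challenged replicate 1) to 2 falls. Among the falls were Tsc22d1, a leucine zipper regulator (log2 difference -1.05, adjusted p = 0.00272), and Sertad3, a transcriptional coregulator (-1.03, adjusted p = 0.00306).

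**Figure D3:**
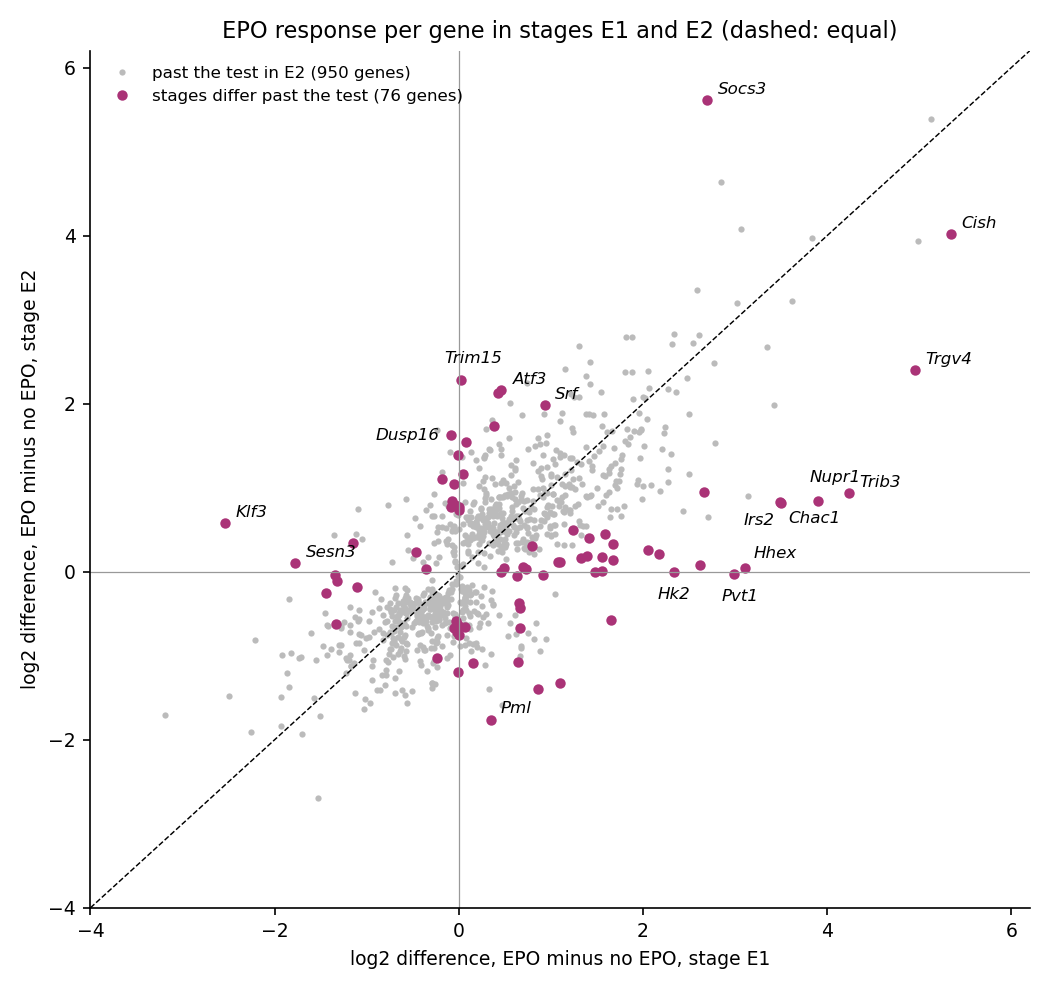
Log2 difference between EPO-challenged and unchallenged arrays in stage E1 (horizontal axis, 4 against 4 arrays) and stage E2 (vertical axis, 3 against 3 arrays), 1 point per gene. Grey points are the 950 genes past the test in E2, purple points the 27 genes above 0 and 49 below 0 in the interaction test, and the dashed line marks equal differences; Socs3 lies above it and Trib3, Nupr1 and Chac1 lie far below it.

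Where the stages parted was tested by the interaction in the joint limma fit, the E2 difference minus the E1 difference. It passed above 0 for 27 genes (0.148%) and below 0 for 49 (0.269%). Of the 27, 14 rose in E2 and did not pass in E1 and 8 fell in E1 and did not pass in E2, while of the 49, 22 rose in E1 and did not pass in E2 and 12 fell in E2 and did not pass in E1. Each gene's probe set was chosen by its spread over the E1 arrays, which holds the EPO difference of E1. That choice favours probe sets that respond in E1, so the counts of genes can lean toward E1 responses. Over all probe sets the interaction passed above 0 for 81 and below 0 for 106.

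Responses that were greater in E2 included feedback, ERK and serum response genes. Socs3 rose 48.8-fold in E2 against 6.48-fold in E1, with unchallenged levels that differed by 0.04 on the log2 scale between stages (interaction 2.91, SE 0.257, adjusted p = 0.000675). Trim15, of the tripartite motif ubiquitin ligase family, lay at -0.08, -0.04 and -0.03 without EPO and at 2.25, 1.84 and 2.62 with it in E2, and differed by 0.02 in E1 (interaction 2.26, SE 0.183, adjusted p = 0.000383). Its E2 call ended without unchallenged replicate 2 (adjusted p = 0.0555). Dusp16 (interaction 1.71, adjusted p = 0.000383), Atf3 (1.70, adjusted p = 0.00730), Maff (1.39, adjusted p = 0.00256) and Srf (1.05, adjusted p = 0.0227) likewise stood higher. Klf10 (1.70, adjusted p = 0.0480) and Phlda1, a pleckstrin homology gene (1.47, adjusted p = 0.0477), passed narrowly and did not under most omissions of 1 array (adjusted p up to 0.134 and 0.132), and Srf did not without any E2 array but unchallenged replicate 3 (0.0515 to 0.0660).

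Other genes stood above 0 with a difference below 0 in E1 and one that did not pass in E2. Sesn3, another sestrin and FOXO target, differed by 0.10 in E2 and by -1.78 in E1 (interaction 1.88, adjusted p = 0.00175). Klf3, a repressor of the Krüppel-like family, differed by 0.58 in E2 (adjusted p = 0.130) and -2.53 in E1 (interaction 3.11, adjusted p = 0.00924). Its 7 probe sets ranged from -0.35 to 0.71 in E2, and 1 of them passed as higher. Ppox, an enzyme near the end of haem synthesis, differed by 0.34 in E2 and -1.15 in E1 (interaction 1.49, adjusted p = 0.0402), and the interaction did not pass under 10 of the 14 omissions of 1 array (adjusted p up to 0.119).

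**Figure D4:**
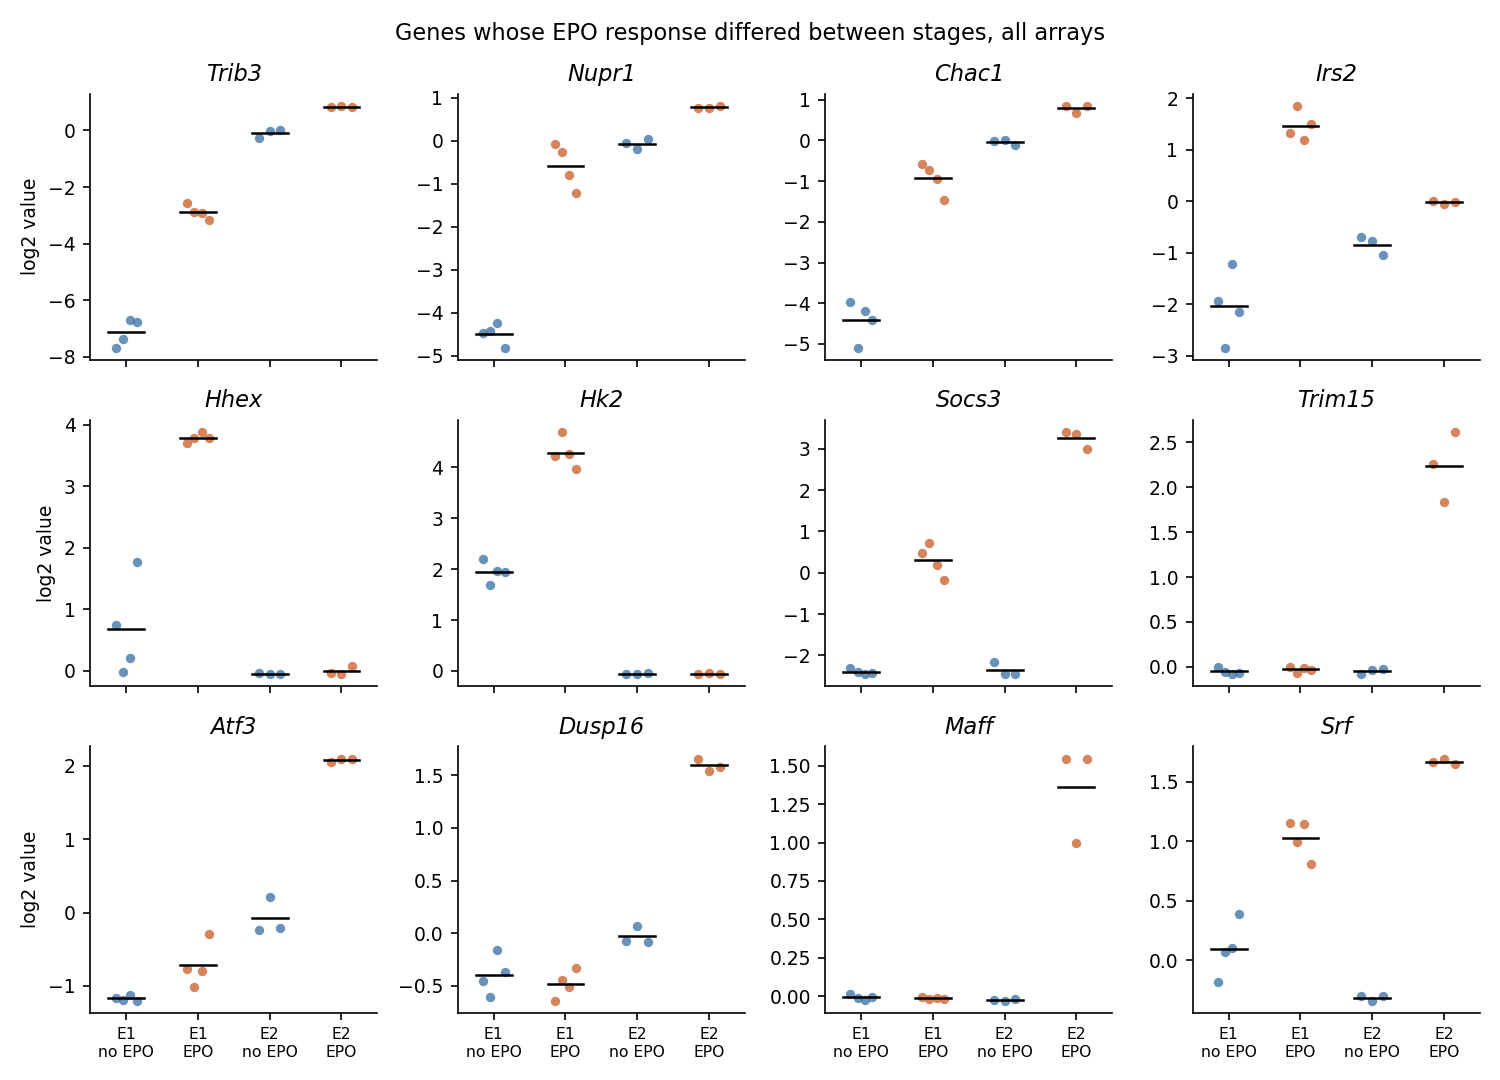
Log2 values of 12 genes on all 14 arrays, 1 point per array with a bar at the group mean, for stages E1 and E2 without EPO (blue) and with EPO (orange); the scale of each gene is centred on its own constant, so heights compare arrays and not genes. Trib3, Nupr1 and Chac1 without EPO are higher in E2 than in E1 by log2 differences of 7.03, 4.42 and 4.38, Hhex and Hk2 are flat on all 6 E2 arrays, and Trim15 and Maff leave their level only in E2 with EPO.

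Among the interactions below 0 was that of Trib3, the lowest of all genes, with other ATF4 genes. Trib3 rose 18.9-fold in E1 and 1.91-fold in E2 (interaction -3.30, SE 0.313, adjusted p = 0.00111), Nupr1 14.9-fold and 1.80-fold (-3.06, SE 0.332, adjusted p = 0.00298) and Chac1 11.3-fold and 1.78-fold (-2.66, SE 0.356, adjusted p = 0.0119). On the deposited scale their unchallenged values were already far higher in E2 than in E1, by log2 differences of 7.03, 4.42 and 4.38, and without EPO the 3 E2 arrays lay above the 4 EPO-challenged E1 arrays for Trib3 and Chac1 but not for Nupr1. Of the 38 list members 21 were higher in unchallenged E2 than in unchallenged E1 and 3 lower, where 11.6% of all genes were higher and 10.8% lower. In all, 6 of the 38 had an interaction below 0 past the test, among them Atf4 (-1.01, adjusted p = 0.0145) and the mitochondrial folate enzyme Mthfd2 (-1.13, adjusted p = 0.0291), which did not pass under 9 of the 14 omissions of 1 array (adjusted p up to 0.0908). Quantile normalization over the 14 arrays moved these to -0.34 (adjusted p = 0.340) and 0.02 (adjusted p = 0.985). The part that the starting level plays in the smaller step was not tested.

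For the ribosome biogenesis factors the median log2 difference was 0.50 in E2 and 0.89 in E1, and 1 of the 82 passed the interaction, below 0. In unchallenged cells 54 of the 82 were lower in E2 than in E1, against the 10.8% of all genes that were, a difference between the stages without EPO. It was read on the deposited scale only, and its dependence on the scaling was not tested.

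**Figure D5:**
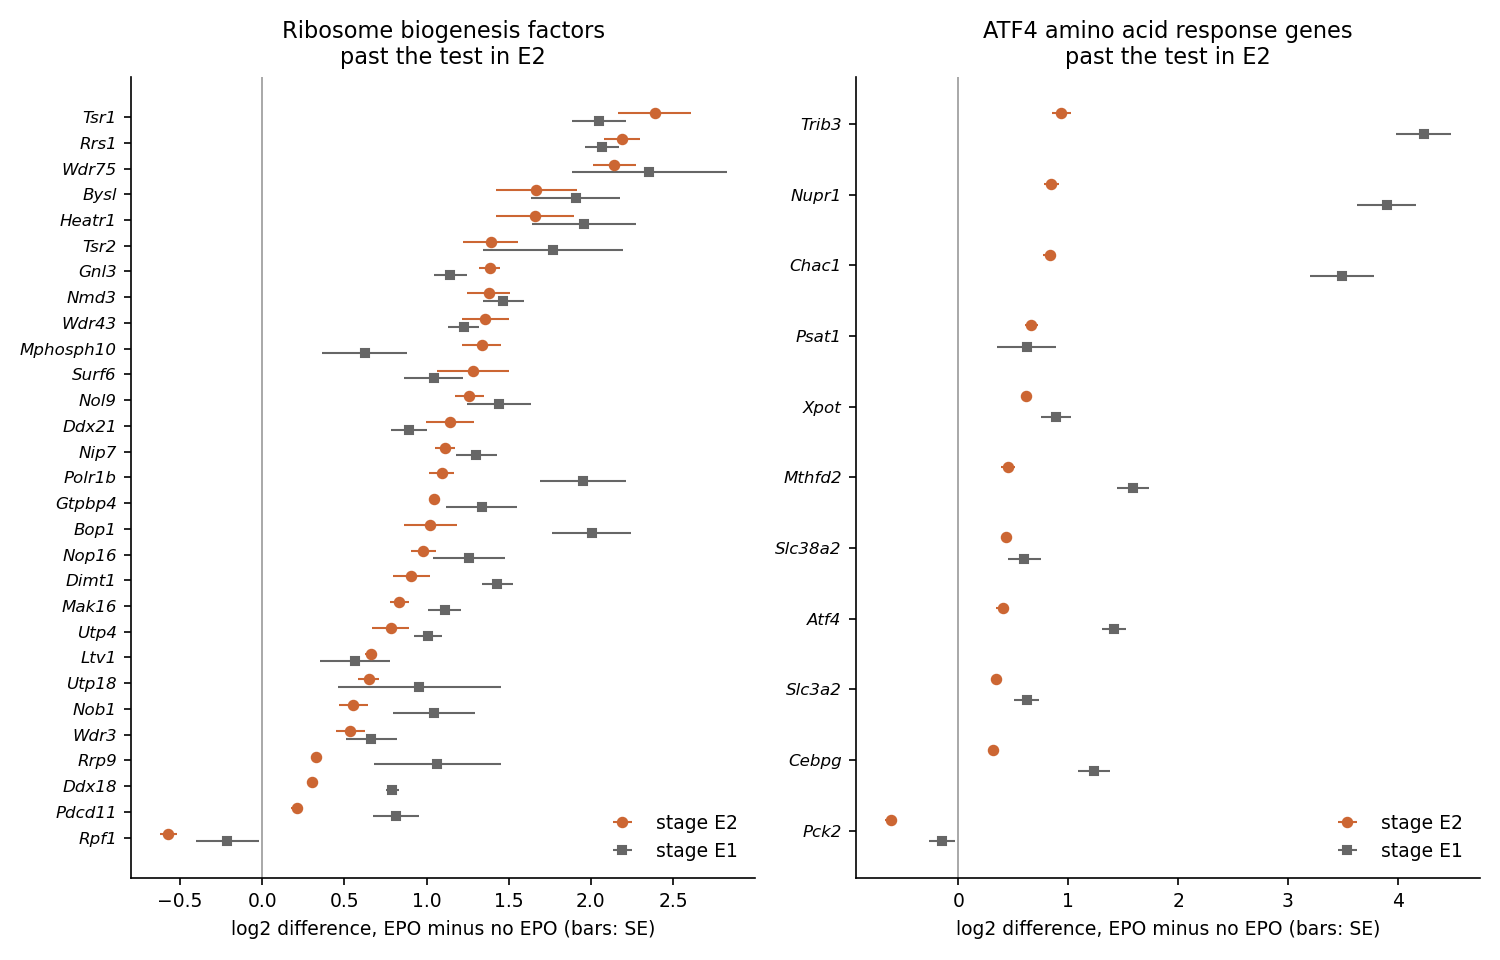
Log2 difference between EPO-challenged and unchallenged arrays, with its SE, in stage E2 (circles) and stage E1 (squares) for the 29 ribosome biogenesis factors (left) and the 11 ATF4 amino acid response genes (right) that passed the test in E2. Most ribosome factors lie close together in both stages, whereas Trib3, Nupr1 and Chac1 stand at 3.49 to 4.24 in E1 and at 0.83 to 0.94 in E2.

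Several genes rose in E1 and differed by less than 0.2 on the log2 scale in E2. Hk2, the glycolytic enzyme hexokinase 2, rose 5.06-fold in E1, and its 6 E2 arrays lay between -0.06 and -0.04 (interaction -2.34, SE 0.209, adjusted p = 0.000726). Hhex, a homeobox factor of early blood cells, rose 8.65-fold in E1 and differed by 0.04 in E2 (-3.07, SE 0.458, adjusted p = 0.0191), and Ydjc differed by 0.08 in E2 after a 6.14-fold rise in E1 (-2.54, SE 0.235, adjusted p = 0.000901). Unchallenged Hk2 was lower in E2 than in E1 by a log2 difference of -2.0. Ccnb1ip1, a ubiquitin ligase of cyclin B, and Gab2, a docking protein of cytokine receptors, rose in E1 and differed by 0.004 and 0.17 in E2 (interactions -1.55, adjusted p = 0.0126, and -1.38, adjusted p = 0.00605, the latter -0.72 with an adjusted p of 0.101 by quantile normalization over the 14 arrays). Unchallenged Ccnb1ip1 was lower in E2 than in E1 by a log2 difference of -4.70. Over the 6 E2 arrays Hk2 spanned 0.021, Ccnb1ip1 0.044 and Hhex 0.13, where T cell markers spanned 0.0065 (Cd3e) to 0.14 (Cd8a). Values this flat may lie at the floor of the arrays in E2, where a response could not be read, and this was not tested. Pvt1, a noncoding neighbour of Myc, gave -0.02 on the probe set that stands for it (interaction -3.01, adjusted p = 0.0191), but 2 of its 5 probe sets rose in E2, by 0.73 and 0.82. The interaction of Hhex did not pass without unchallenged E2 replicates 1 or 2 or EPO-challenged E2 replicate 1 (adjusted p 0.0529 to 0.0539), nor that of Pvt1 without these or EPO-challenged E2 replicate 3 (0.0529 to 0.0548).

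Some early targets rose in both stages by unequal amounts. Irs2 rose 11.3-fold in E1 and 1.77-fold in E2 (interaction -2.68, adjusted p = 0.0234), and the transcript read by the Trgv4 probe set, of a T cell receptor gamma segment, 31.1-fold and 5.29-fold (-2.55, adjusted p = 0.0267). Cish rose 40.7-fold in E1 and 16.2-fold in E2 (-1.33, adjusted p = 0.0152), from an unchallenged value higher in E2 by 4.31. These 3 interactions depend on the scaling: quantile normalization over the 14 arrays moved the interaction of Irs2 to -0.53 (adjusted p = 0.598) and of Trgv4 to 0.10 (adjusted p = 0.942), and turned that of Cish to 3.05. Pml fell in E2 and differed by 0.35 in E1 (-2.11, adjusted p = 0.0145), while Crebbp, a histone acetyltransferase, differed by -1.32 in E2 (adjusted p = 0.0939) and by 1.10 in E1 (-2.43, adjusted p = 0.0465) on 1 of its 4 probe sets. The interaction of Crebbp passed under only 2 of the 14 omissions of 1 array (adjusted p up to 0.125), that of Trgv4 ended under 8 (up to 0.0758) and that of Irs2 under 6 (up to 0.0708).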

How the data were processed

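Affymetrix whole-genome mouse arrays of 6 stage E2 and 8 stage E1 samples were used. The deposited values are log2 values of the authors, who read the arrays with Affymetrix software and normalized them by GC-RMA in GeneSpring, with 1 constant per probe set subtracted, so that differences between arrays but not levels can be read. The base of the log is inferred from this and is not written in the files. In 78.0% of 45101 probe sets the smallest values above and below 0 were of equal size (tolerance 2e-06), as a median over an even number of arrays would leave.

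After leaving out 64 control probe sets, 45037 were tested by limma 3.58.1 in R 4.3.3 (lmFit and eBayes, two-sided, Benjamini-Hochberg over all probe sets, adjusted p under 0.05) on the 6 E2 arrays. The stage interaction and the stage difference without EPO came from a fit of 4 group means on 14 arrays. The alternatives given below were not run for the stage difference without EPO, so its dependence on the scaling was not tested. Probe sets were named from the platform annotation updated by RefSeq, which gave 34945 that name 1 gene, 932 that name several and 9160 that name none, and only the first were used for genes. Each of 18193 genes was represented by its probe set with the largest SD over the 8 E1 arrays. The method was tested on simulated data. The number of arrays limits the precision, and an exact permutation test of 3 against 3 could not pass the threshold.

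Members and gene lists were chosen with earlier results of these data known. Genes named were the 15 largest rises and falls past the test whose groups did not overlap, genes the study named in E1, up to 4 members per list by smallest p, and the 10 largest interaction values of each sign. Bcl2l1, Epor, Fos, Rpf1, Slc4a1 and Steap3 fall outside this rule and were chosen after their values were seen. The alternatives were quantile normalization, median centring, a replicate block, a fit on 14 arrays, robust variances, array weights, a filter on E1 spread, the methods' t-test, other gene values, another fold and leaving out each array in turn.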

Additional observations from a re-analysis of the deposited data

Results flagged for a closer look

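The genes here were picked out because their EPO difference in E2 minus that in E1 passed the interaction test of limma on 14 arrays. Above 0 stood Klf3 at 3.11, Socs3 at 2.91, Trim15 at 2.26, Sesn3 at 1.88, Dusp16 at 1.71, Atf3 at 1.70, Klf10 at 1.70, Ppox at 1.49, Phlda1 at 1.47, Maff at 1.39 and Srf at 1.05 on the log2 scale. Below 0 stood the ATF4 response genes Trib3 at -3.30, Nupr1 at -3.06, Chac1 at -2.66, Mthfd2 at -1.13 and Atf4 at -1.01. Genes near flat in E2 on the probe set that stands for them were Hhex at -3.07, Pvt1 at -3.01, Ydjc at -2.54, Hk2 at -2.34, Ccnb1ip1 at -1.55 and Gab2 at -1.38. Other probe sets of Pvt1 rose in E2, as given above. The others below 0 were Irs2 at -2.68, Trgv4 at -2.55, Crebbp at -2.43, Pml at -2.11, Cish at -1.33 and Lyl1 at -0.74. Which of these calls rest on single arrays is given with the genes in the report, and the interaction of Lyl1 ended under 7 of the 14 omissions of 1 array (adjusted p 0.0574 to 0.0847).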

How the results depend on the processing

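Of 106 named genes past the test in E2, 68 passed whichever E2 array was left out and 38 under every alternative run. Of 28 past the interaction test, 17 and 6 did. Leaving out 1 array gave 504 to 843 probe sets higher and 330 to 546 lower, 224 to 284 and 64 to 136 with a fold of at least 2 (338 and 150 with all arrays), 247 to 371 genes higher and 151 to 249 lower, and 39 to 114 interaction probe sets above 0 and 51 to 217 below (81 and 106 with all arrays). Whether same-numbered arrays share a culture is not given in the sources used here, and they were treated as unpaired. Same-numbered E2 arrays did not deviate together over all probe sets (correlations -0.061, -0.057 and -0.016), which cannot show that they are unpaired. With the replicate block there were 264 probe sets higher and 153 lower, 119 and 27 with a fold of at least 2, 138 genes higher and 73 lower, and 20 and 24 for the interaction. The block ended the E2 calls of 63 of the 106 named genes and the interaction calls of 21 of the 28. The fit on all 14 arrays gave 611 and 388 probe sets and 249 and 126 genes. It ended the E2 calls of 33 of the 106 named genes (adjusted p 0.0539 to 1), with their differences as before. Keeping only the probe sets with an E1 spread above the median gave 1839 and 1670 probe sets, 825 and 754 genes and 231 lower with a fold of at least 2. The methods' t-test unadjusted gave 4100 and 5639 probe sets, 1784 and 2413 genes and 279 lower with a fold of at least 2, and after Benjamini-Hochberg 1003 and 812 probe sets. A fold of at least 1.5 gave 728 and 456, and averaging the probe sets of a gene 810 and 763 genes. Quantile normalization over 14 arrays gave 949 and 769 interaction probe sets, turned the interaction of Cish to 3.05, Lyl1 to 0.0055, Mthfd2 to 0.019 and Trgv4 to 0.10, and ended the calls of Atf4 (-0.34), Gab2 (-0.72) and Irs2 (-0.53). Within-stage quantile normalization, chosen after seeing the data, ended those of Ccnb1ip1, Cish, Klf10, Lyl1 and Mthfd2, and median centring those of Crebbp, Klf10, Phlda1 and Ppox. Values near 0 in E2 that changed sign were Hk2 (0.0076 by quantile normalization, 0.0019 by median centring, 0.00099 with array weights, 0.0030 and 0.0013 without unchallenged or EPO-challenged replicate 3, and -0.0073 to 0.0030 over all omissions), Ccnb1ip1 (-0.0098 without EPO-challenged replicate 1, up to 0.012 without EPO-challenged replicate 3), Epor (0.0029 without unchallenged replicate 2), Ppox (-0.19 on the probe set with the largest SD over 14 arrays) and Pvt1 (0.37 as the mean of its probe sets). The mean of the Pvt1 probe sets passed as a rise by limma (adjusted p = 0.00356). The cause of these shifts was not tested.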
